A study of Mus musculus domesticus and Mus musculus domesticus x Mus musculus castaneus and Mus musculus castaneus with 27 samples.

Results

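The genes described here are 10 markers of contractile and fibroblast-like cells, measured in mouse motor neuron (MN) cultures with pluripotent stem cells (PSC) as the baseline. They were taken from a list of symbols: Acta2, Tagln, Myl9 and Cnn1 of the contractile apparatus, Fn1, Fbn1 and Postn of the extracellular matrix, and the surface proteins Pdgfra, Pdgfrb and Thy1. Each symbol matched exactly 1 Ensembl gene, so 10 of the 27071 genes in the count table were followed. None of them was listed at 0 in any library.

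Smooth muscle cells, pericytes and myofibroblasts share a contractile programme of smooth muscle actin, its regulators and actin-binding proteins, which serum response factor with myocardin family cofactors and TGF-beta signalling are known to drive. Fibroblasts of the mesenchyme secrete the fibronectin, fibrillin and collagen matrix and respond to PDGF through the receptors alpha and beta. Motor neurons are not known for the contractile programme, whereas Thy1 is a surface glycoprotein of both fibroblasts and mature neurons.

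RNA was polyadenylated RNA, sequenced from cultures of 5 genotypes. The MN groups were CAS129 with 3 libraries, 129CAS with 1, 129S6/SvEv (129) with 2, CAST/EiJ (CAST) with 1 and C57BL/6 (BL6) with 7. The PSC groups were CAS129, CAST and BL6 with 2 libraries each. CAS129 and 129CAS are F1 hybrids of the subspecies domesticus and castaneus, and the labels do not say which part of a hybrid name stands for the mother. The labels name no treatment, no differentiation protocol and no sorting step, and do not state that the libraries of a group are separate cultures. The p-values therefore reflect only the spread between these libraries, which may be technical. MN and PSC RNA were extracted with different kits, so a difference of kit cannot be told apart from one of cell type. The 129 and 129CAS genotypes had no PSC library in the table.

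The 129CAS MN library held 25686979 counts and the 129 MN libraries 44572794 and 41751493, whereas the other 17 libraries held 4497912 to 13620056. Depth and these 2 genotypes therefore cannot be told apart. The labelled cell types were checked against summed CPM, counts scaled to library size, of marker lists. The 10 motor neuron markers summed to 334 to 2052 CPM in MN and 6.07 to 40.2 CPM in PSC, and the 8 pluripotency markers to 43.2 to 1150 CPM in MN and 3726 to 5271 CPM in PSC. The CAS129 MN libraries held 447 to 1150 CPM of the pluripotency list, against 43.2 to 115 CPM in all other MN libraries. In bulk RNA, fewer cells of a type and less RNA per cell cannot be told apart. Within PSC, the library numbered 1 stood apart from the library numbered 2 in all 3 genotypes for several of the 10 genes, which is described with the baseline values.

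All 10 genes rose in MN against PSC. In a fit of the 3 genotypes that had both cell types, with genotype as a covariate, edgeR's quasi-likelihood test called 10 of 10 higher at a Benjamini-Hochberg adjusted p under 0.05 and 0 lower. Over all 15596 genes tested, 36.1% were called higher and 38.5% lower. The median log2 fold change of the 10 was 4.17, beside -0.05 over all genes tested. For 7 of the 10, the lowest of the 14 MN libraries lay above the highest of the 6 PSC libraries, which held for 18.4% of all genes tested. The 3 whose ranges overlapped were Postn, Pdgfra and Thy1.

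**Figure D1:**
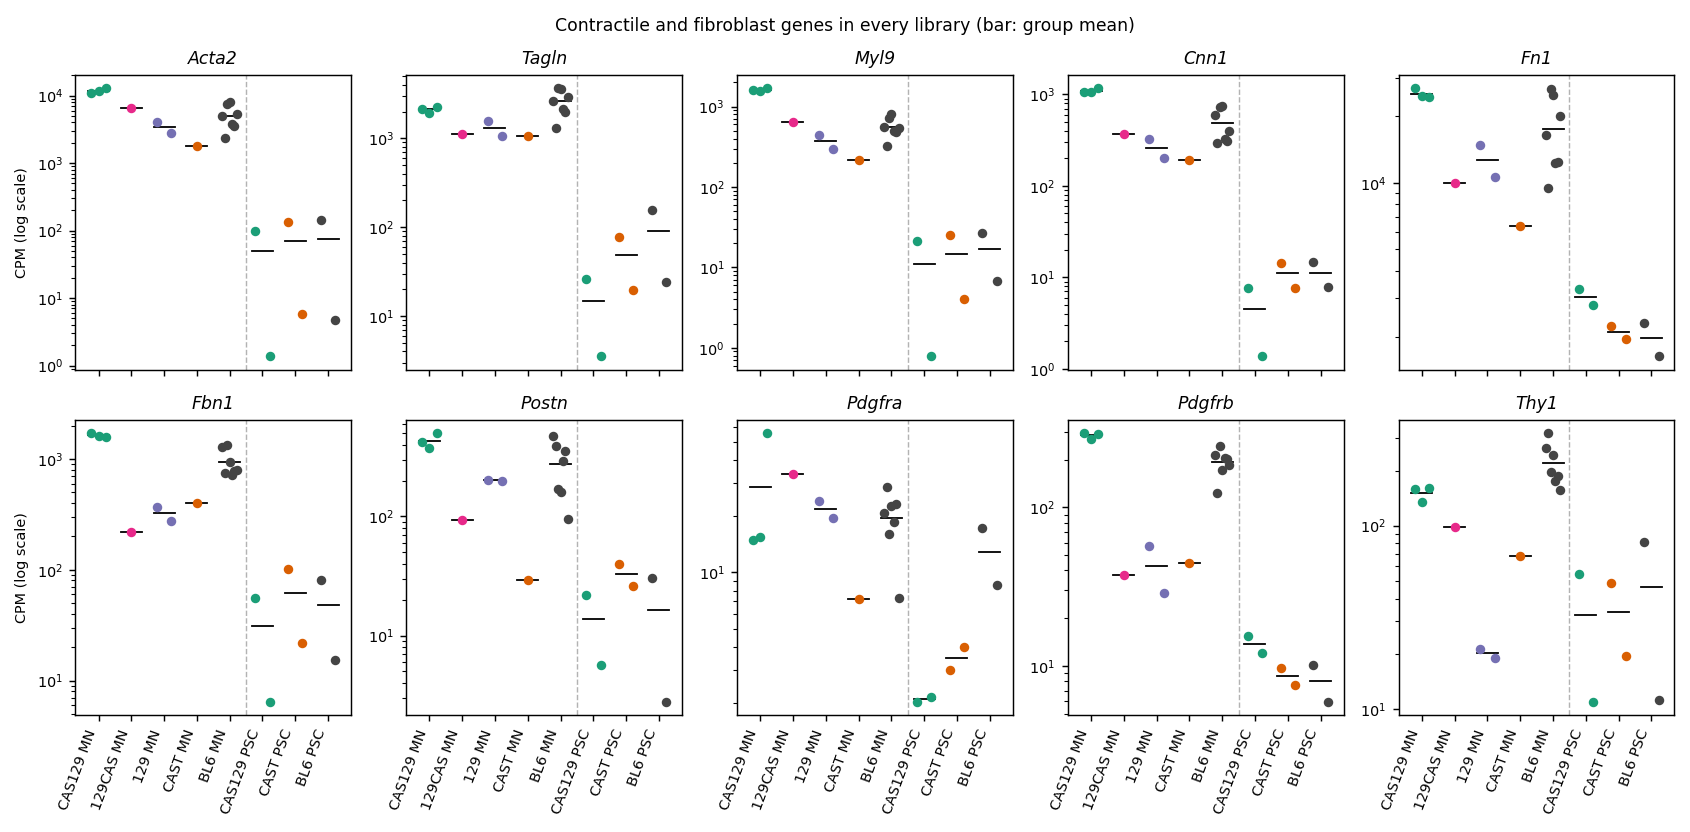
CPM on a log scale (vertical axis) of each of the 10 genes in every library, with MN groups left of the dashed line and PSC groups right of it; each point is 1 library and each bar a group mean. The contractile genes, Fn1, Fbn1 and Pdgfrb are higher in every MN library than in every PSC library, while Postn, Pdgfra and Thy1 overlap.

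Acta2, smooth muscle alpha-actin (chr19:34241090-34255590, minus strand, mm10), had the largest log2 fold change of the 10. Its CPM was 11085 to 12959 in the 3 CAS129 MN libraries, 6521 in 129CAS MN, 2831 and 4082 in 129 MN, 1811 in CAST MN and 2372 to 7950 in the 7 BL6 MN libraries, with a median of 4965. In PSC it was 99.6 and 1.37 CPM for CAS129, 136 and 5.89 for CAST, and 145 and 4.81 for BL6. All MN libraries were above all PSC libraries, and within each PSC genotype the 2 libraries were far apart. The log2 fold change of MN over PSC was 6.27 ± 1.06 (SE; edgeR adjusted p = 3.88e-05). The protein of Acta2 is nearly identical to those of other actin genes such as Actg2, Acta1 and Actc1. How reads were divided among these genes was not tested.

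Tagln (transgelin, SM22, an actin-binding protein of smooth muscle; chr9:45929619-45936058, minus strand) had 1944 to 2269 CPM in CAS129 MN, 1118 in 129CAS MN, 1062 and 1572 in 129 MN, 1057 in CAST MN and 1297 to 3693 in BL6 MN. PSC libraries held 26.2 and 3.52 CPM (CAS129), 78.1 and 19.6 (CAST), and 155 and 24.4 (BL6). The groups did not overlap, and the log2 fold change was 5.32 ± 0.65 (edgeR adjusted p = 9.38e-07). The 3′ end of Tagln overlaps Pcsk7 on the opposite strand by 108 bases, and Pcsk7 was at 31.4 to 44.2 CPM in MN.

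Myl9, the regulatory light chain of smooth muscle myosin (chr2:156775420-156781658, plus strand), had 1572 to 1703 CPM in CAS129 MN, 635 in 129CAS MN, 300 and 448 in 129 MN, 214 in CAST MN and 327 to 807 in BL6 MN, against 0.78 to 26.9 CPM over all PSC libraries. Its log2 fold change was 5.37 ± 0.71 (edgeR adjusted p = 2.6e-06). Cnn1 (calponin 1, a thin-filament inhibitor of smooth muscle myosin; chr9:22099216-22109630, plus strand) had 191 to 1175 CPM over the MN libraries and 1.37 to 14.7 CPM over the PSC libraries. Its log2 fold change was 5.79 ± 0.59 (edgeR adjusted p = 1.12e-07). The 4 contractile genes thus rose together, by 40.0-fold (Tagln) to 77.4-fold (Acta2) in the fit.

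Of the matrix genes, Fn1 (fibronectin; chr1:71585520-71653200, minus strand) was the only one abundant in PSC. It had 24422 to 26934 CPM in CAS129 MN, 9996 in 129CAS MN, 10664 and 14776 in 129 MN, 6404 in CAST MN and 9471 to 26526 in BL6 MN. PSC libraries held 3320 and 2788 CPM (CAS129), 2255 and 1953 (CAST), and 2318 and 1637 (BL6). The log2 fold change was 2.71 ± 0.33 (edgeR adjusted p = 9.67e-07), the smallest of the 3 matrix genes. Fn1 made up 52.3% to 68.4% of the summed CPM of the 10 genes in MN libraries and 80.5% to 98.4% in PSC libraries.

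Fbn1 (fibrillin 1, the backbone of extracellular microfibrils; chr2:125300594-125507993, minus strand) had 1582 to 1706 CPM in CAS129 MN, 221 in 129CAS MN, 275 and 371 in 129 MN, 402 in CAST MN and 723 to 1350 in BL6 MN. Its PSC libraries held 55.9 and 6.46 CPM (CAS129), 101 and 21.9 (CAST), and 80.0 and 15.4 (BL6). It rose by a log2 fold change of 4.37 ± 0.62 (edgeR adjusted p = 6.03e-06). Gm9913 lies within the Fbn1 locus on the opposite strand and overlaps it by 2793 bases. It was at 88.5 to 109 CPM in CAS129 MN, 18.2 in CAST MN and 40.9 to 86.1 in BL6 MN, but at 0.25 to 0.35 CPM in 129CAS and 129 MN. A use of strand in counting was not given in the sources used here, and reads of Fbn1 and Gm9913 cannot be told apart.

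Postn (periostin, a matrix protein of activated fibroblasts; chr3:54361109-54391037, plus strand) had 375 to 500 CPM in CAS129 MN, 92.7 in 129CAS MN, 200 and 204 in 129 MN, 29.3 in CAST MN and 95.01 to 478 in BL6 MN. In PSC it had 21.8 and 5.68 CPM (CAS129), 40.1 and 25.9 (CAST), and 30.2 and 2.79 (BL6). The CAST MN library lay within the range of the PSC libraries, whereas the other 13 MN libraries lay above it. The log2 fold change over the 3 genotypes was 3.75 ± 0.81 (edgeR adjusted p = 0.000459).

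The PDGF receptors differed in level and in change. Pdgfrb, the receptor of mural cells and fibroblasts (chr18:61045150-61085061, plus strand), had 271 to 293 CPM in CAS129 MN, 37.6 in 129CAS MN, 28.7 and 57.03 in 129 MN, 44.5 in CAST MN and 123 to 245 in BL6 MN. PSC libraries held 15.5 and 12.1 CPM (CAS129), 9.66 and 7.65 (CAST), and 10.2 and 5.97 (BL6). It rose by a log2 fold change of 3.98 ± 0.31, with no overlap between MN and PSC (edgeR adjusted p = 6.09e-09).

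Pdgfra, the receptor of fibroblast progenitors and of primitive endoderm (chr5:75152292-75198215, plus strand), was low everywhere. It had 15.0, 15.6 and 55.6 CPM in CAS129 MN, 33.6 in 129CAS MN, 19.6 and 24.2 in 129 MN, 7.24 in CAST MN and 7.26 to 28.8 in BL6 MN. PSC libraries held 2.04 and 2.15 CPM (CAS129), 2.997 and 4.01 (CAST), and 17.2 and 8.53 (BL6). The third CAS129 MN library stood above the other two, and the MN and PSC ranges overlapped. The log2 fold change was 1.37 ± 0.47 (edgeR adjusted p = 0.0146), and it missed the threshold without the PSC libraries numbered 2 (1.06, edgeR adjusted p = 0.128). The primitive endoderm list, whose cells also use Pdgfra, summed to 474 to 879 CPM in CAS129 MN, 740 and 940 in 129 MN and 124 to 448 in the other MN libraries, against 90.1 to 186 in PSC. Its part in the Pdgfra values was not tested.

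Thy1 (chr9:44043384-44048579, plus strand) had 135 to 160 CPM in CAS129 MN, 98.5 in 129CAS MN, 19.0 and 21.3 in 129 MN, 68.0 in CAST MN and 156 to 320 in BL6 MN. PSC libraries held 54.5 and 10.96 CPM (CAS129), 48.4 and 19.6 (CAST), and 81.6 and 11.2 (BL6). The 129 MN libraries and the CAST MN library thus lay within the range of all PSC libraries, though CAST MN was above both CAST PSC libraries. The log2 fold change of MN over PSC was 1.85 ± 0.44 (edgeR adjusted p = 0.00106).

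Levels were compared between genes as CPM per kilobase of exon, because the exon lengths run from 1162 to 12128 bases. In BL6 MN the order was Acta2 at 2296 CPM per kilobase, Fn1 at 1496, Tagln at 1314, Myl9 at 486, Cnn1 at 178, Fbn1 at 78.0, Thy1 at 73.6, Pdgfrb at 35.0, Postn at 31.8 and Pdgfra at 1.96. In CAST MN, Acta2 was at 825, Fn1 at 548, Tagln at 532 and Pdgfra at 0.72 CPM per kilobase. Smooth muscle actin and fibronectin thus led the levels, and Pdgfra was lowest, in both groups.

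The PSC baseline was itself uneven, since the library numbered 1 held more of most of the 10 genes than the library numbered 2. That was so for 9 of 10 genes in CAS129, 9 in CAST and 10 in BL6, and by over 2-fold for 7, 5 and 7 of them. Over all genes at 1 CPM or more, 8.45% in CAS129, 6.77% in CAST and 15.5% in BL6 were over 2-fold higher in library 1. The ratio for Acta2 was 72.7 in CAS129, 23.1 in CAST and 30.2 in BL6, while Fn1 differed by 1.19-, 1.15- and 1.42-fold. With 1 library against 1, these ratios have no test.

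Other lists differed between the numbered PSC libraries to unlike extents. The 4 TGF-beta targets other than Ccn2 and Ccn1, which were listed at 0 in every hybrid library, summed to 6.05-fold more in library 1 of CAS129, 4.499-fold more for CAST and 6.79-fold more for BL6, and the non-member fibroblast list to 2.36-, 1.81- and 3.71-fold more. The pluripotency list had ratios of 1.10, 1.01 and 0.88, and the motor neuron list ratios of 1.14, 0.87 and 0.72. The labels give no culture or batch detail for these libraries, and what set them apart was not tested.

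**Figure D2:**
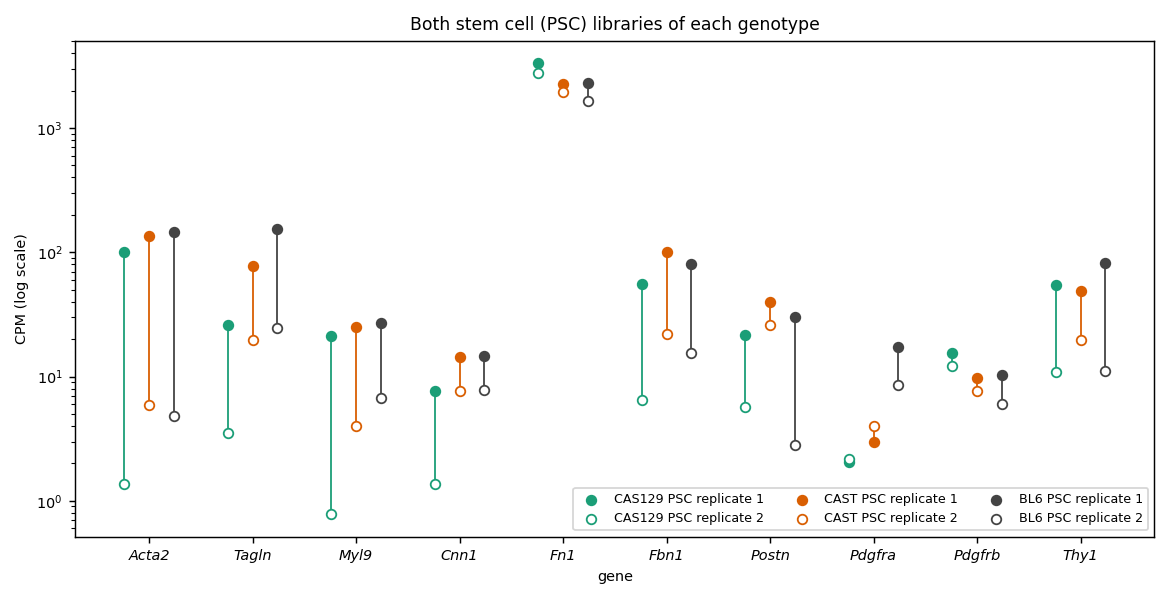
CPM on a log scale (vertical axis) of the 10 genes (horizontal axis) in the PSC libraries numbered 1 (filled) and 2 (open) of each genotype, joined by a line. Library 1 is higher for Acta2, Tagln, Myl9, Cnn1, Fbn1, Postn and Thy1 in all 3 genotypes, and Fn1 differs little.

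With either set of PSC libraries left out, at least 9 of the 10 genes still passed. With only the PSC libraries numbered 1 as baseline, 9 of 10 genes rose, and Acta2 had a log2 fold change of 5.17 (edgeR adjusted p = 6.95e-06). With only those numbered 2, 10 of 10 rose, and Acta2 had 10.15 (edgeR adjusted p = 2.54e-07). The size of the change thus depended on the baseline for Acta2, and for other genes too. Tagln had 4.46 with the libraries numbered 1 and 6.99 with those numbered 2, Myl9 4.48 and 6.94, and Fbn1 3.46 and 5.96. In the same order, Postn had 2.65 and 5.01, and Thy1 1.095 and 3.38. The shift was smaller for Cnn1 (5.16 and 6.26), Pdgfra (1.06 and 1.63), Pdgfrb (3.61 and 4.14) and Fn1 (2.46 and 2.82). These baselines were chosen after seeing the data.

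Within genotypes, 10 of 10 genes rose in CAS129 MN against CAS129 PSC, where 30.4% of all genes tested were called higher and 23.9% lower. In CAST 7 of 10 rose, beside 30.3% of all genes higher and 25.7% lower, and in BL6 9 of 10 rose, beside 36.0% higher and 34.2% lower. The median log2 fold change of the 10 was 5.33 in CAS129, 2.53 in CAST and 4.44 in BL6, beside 0.03, 0.02 and 0.05 over all genes tested. The gene that missed the threshold in BL6 was Pdgfra, at a log2 fold change of 0.61 ± 0.48 (edgeR adjusted p = 0.27).

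In CAST, Postn had a log2 fold change of -0.17 ± 0.97, Pdgfra of 1.05 ± 0.75 and Thy1 of 0.998 ± 0.81 (edgeR adjusted p = 0.895, 0.246 and 0.302). The CAST MN arm is 1 library, assumed to vary like the other groups. Leaving out CAST PSC library 2 left 4 of 10 genes called, and Acta2 (3.73, edgeR adjusted p = 0.10), Fn1 and Fbn1 lost their calls. Thy1 lost its call in CAS129 without CAS129 PSC library 2 (1.20, edgeR adjusted p = 0.20) and in BL6 without BL6 PSC library 2 (1.34, edgeR adjusted p = 0.074).

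**Figure D3:**
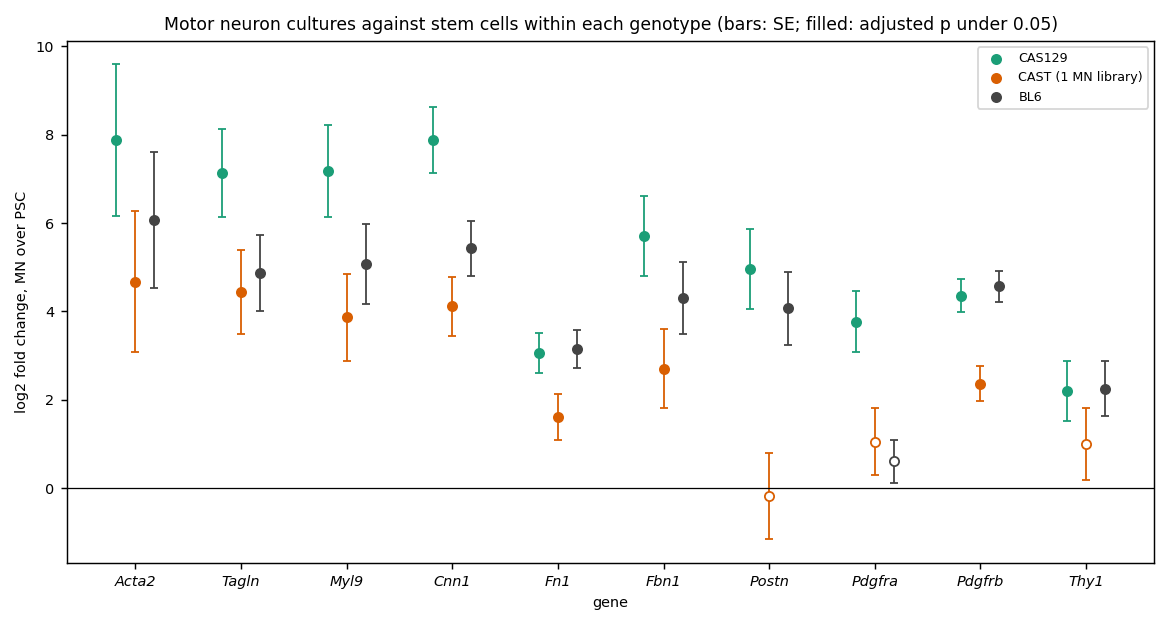
Log2 fold change of MN over PSC (vertical axis) for each of the 10 genes (horizontal axis) in CAS129, CAST and BL6; bars are standard errors and filled points passed an edgeR adjusted p of 0.05. All points but CAST Postn lie above 0, and the open points are Postn, Pdgfra and Thy1 in CAST and Pdgfra in BL6.

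A direct test compared the genotypes in their change from PSC to MN. For CAS129 minus BL6, 2 of 10 genes had a larger change and 0 a smaller one, beside 13.7% and 4.53% of all genes tested. Cnn1 was larger by 2.45 ± 0.73 on the log2 scale (edgeR adjusted p = 0.0269) and Pdgfra by 3.16 ± 0.79 (edgeR adjusted p = 0.0113). The median of this difference over all genes was 0.26, and it depended on scaling. Over all genes, 2166 were larger and 718 smaller, but 1258 and 1116 with RLE scaling and 1678 and 1641 in DESeq2, and the 10 genes' log2 differences shifted by a median of -0.30 with RLE.

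These calls were not stable. Cnn1 lost its call without any 1 of 7 libraries, which were BL6 PSC 1, BL6 MN 7, 129 MN 2, CAS129 MN 1, 2 and 3 and CAS129 PSC 2 (edgeR adjusted p = 0.056 to 0.23). Pdgfra lost it without either CAS129 PSC library (edgeR adjusted p = 0.055 and 0.075), each of which held 11 or 13 counts of the gene. Without CAS129 PSC library 1, 5 of 10 genes were called larger, among them Acta2 at 6.96 (edgeR adjusted p = 0.047) and Myl9 at 5.89 (edgeR adjusted p = 0.010).

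For CAST minus BL6, 0 of 10 genes had a larger change and 1 a smaller one, beside 4.55% and 2.73% of all genes tested. Pdgfrb was smaller by a log2 difference of -2.20 ± 0.52 (edgeR adjusted p = 0.017). It missed the threshold without BL6 PSC library 2 (-1.89, edgeR adjusted p = 0.070) or CAST PSC library 1 (-2.02, edgeR adjusted p = 0.062). Postn had -4.24 ± 1.31 (edgeR adjusted p = 0.0595), and without BL6 PSC library 1 it was called, at -6.80 (edgeR adjusted p = 0.0028), as was Thy1, at -3.30 (edgeR adjusted p = 0.025). Postn also passed, narrowly, without BL6 MN library 2 or 7 or either CAS129 PSC library.

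The genotypes also differed among the PSC alone at few of the 10 genes, in a fit with no term for the replicate number. Between CAST PSC and BL6 PSC, 0 of 10 passed in edgeR, beside 5.74% of all genes tested called higher and 4.81% lower. At an unadjusted p under 0.05, 1 of the 10 passed, and DESeq2 called 1, Pdgfra (-1.88, DESeq2 adjusted p = 0.023). Without BL6 PSC library 1, edgeR called Postn (3.57, edgeR adjusted p = 0.043). Between CAS129 PSC and BL6 PSC, 0 genes were higher and 1 was lower, beside 8.72% and 17% of all genes tested. This was Pdgfra, at a log2 fold change of -2.57 ± 0.57 (edgeR adjusted p = 0.0119), and without either CAS129 PSC library it missed the threshold (-2.55 and -2.60, edgeR adjusted p = 0.068 and 0.060).

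Among MN cultures, the genotypes were set against BL6 MN in a fit of the 14 MN libraries. The summed CPM of the 10 genes was 43135 to 45406 in CAS129 MN, 19120 in 129CAS MN, 15598 and 21879 in 129 MN, 10228 in CAST MN and 15360 to 41055 in BL6 MN. CAS129 MN was above the whole BL6 range and CAST MN below it, while 129 and 129CAS MN lay within it.

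In CAS129 MN, 4 of the 10 genes were higher than in BL6 MN and 1 was lower, beside 27.0% and 32.5% of all genes tested. Acta2 averaged 11854 ± 981 CPM in CAS129 MN and 5041 ± 2055 CPM in BL6 MN (SD, n = 3 and 7), a log2 fold change of 1.12 ± 0.32 (edgeR adjusted p = 0.00914). Myl9 averaged 1620 ± 72.2 CPM in CAS129 MN and 564 ± 160 CPM in BL6 MN, a log2 fold change of 1.41 ± 0.23 (edgeR adjusted p = 0.00017). Cnn1 was higher by 1.06 ± 0.30 and Fbn1 by 0.68 ± 0.21 (edgeR adjusted p = 0.00868 and 0.0147). For these 4 genes and for Pdgfrb, which was at 271 to 293 CPM against 123 to 245 CPM, all 3 CAS129 MN libraries were above all 7 BL6 MN libraries. The share of all genes tested with such a separation was not computed.

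Tagln did not follow the other contractile genes in CAS129 MN, with 2120 ± 164 CPM there and 2612 ± 879 CPM in BL6 MN and a log2 fold change of -0.41 ± 0.30 (edgeR adjusted p = 0.244). The ratio of Acta2 to Tagln CPM was 5.16 to 5.93 in CAS129 MN and 5.83 in 129CAS MN. It was 2.60 and 2.67 in 129 MN, 1.71 in CAST MN and 1.75 to 2.20 in BL6 MN. Both hybrid labels thus stood above every inbred MN library in this ratio, which is given as a description. Some genes, such as Ccn2 at a mean of 2373 CPM in BL6 MN, were listed at 0 in every hybrid library. A difference in how the hybrid libraries were counted therefore cannot be told apart from genotype, here or in other comparisons of hybrids with BL6.

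Thy1 was the gene that was lower in CAS129 MN, at 151 ± 13.7 CPM, against 220 ± 58.4 CPM in BL6 MN, a log2 fold change of -0.64 ± 0.19 (edgeR adjusted p = 0.0119). It missed the threshold without CAS129 MN library 2 (-0.58, edgeR adjusted p = 0.059), as Fbn1 did without CAS129 MN library 1 (0.65, edgeR adjusted p = 0.053). Fn1 (0.42 ± 0.32), Postn (0.54 ± 0.37), Pdgfrb (0.46 ± 0.22) and Pdgfra (0.43 ± 0.41) did not pass (edgeR adjusted p = 0.277, 0.235, 0.0836 and 0.381). Pdgfrb passed without either 129 MN library (0.46, edgeR adjusted p = 0.039), and Tagln without BL6 MN library 2 (-0.55, edgeR adjusted p = 0.047).

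In CAST MN, which is 1 library, 0 of the 10 genes were higher than in BL6 MN and 5 were lower, beside 5.76% and 6.58% of all genes tested. Postn had 29.3 CPM in CAST MN, against 277 ± 140 CPM in BL6 MN, a log2 fold change of -3.31 ± 0.78 (edgeR adjusted p = 0.0151). Pdgfrb fell by 2.19 ± 0.41 and Thy1 by 1.77 ± 0.34 on the log2 scale (edgeR adjusted p = 0.0039 and 0.0043). Myl9 (-1.48 ± 0.43) and Fbn1 (-1.31 ± 0.38) passed narrowly (edgeR adjusted p = 0.0388 and 0.0405).

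Acta2, Tagln, Cnn1, Fn1 and Pdgfra had log2 fold changes of -1.39 to -1.56 in CAST MN without passing (edgeR adjusted p = 0.0935 to 0.203). How many passed depended on the libraries and the tool. Without BL6 MN library 2, the lowest BL6 library for the contractile genes and Fn1, 9 of 10 were called lower, and DESeq2 also called 9. Both Myl9 and Fbn1 lost their calls without BL6 MN library 1 or 7 or any 1 of the 3 CAS129 MN libraries, which left 3 of 10 called.

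In 129 MN, 0 of the 10 genes were higher than in BL6 MN and 4 were lower, beside 18.3% and 18.1% of all genes tested. Thy1 averaged 20.2 ± 1.63 CPM in 129 MN and 220 ± 58.4 CPM in BL6 MN (SD, n = 2 and 7), a log2 fold change of -3.58 ± 0.28 (edgeR adjusted p = 5.51e-07). Pdgfrb averaged 42.9 ± 20.04 CPM in 129 MN and 192 ± 38.2 CPM in BL6 MN, a log2 fold change of -2.29 ± 0.30 (edgeR adjusted p = 6.61e-05). Fbn1 averaged 323 ± 68.1 CPM in 129 MN and 946 ± 265 CPM in BL6 MN, a log2 fold change of -1.68 ± 0.29 (edgeR adjusted p = 0.000534). Gm9913, on the opposite strand of Fbn1, was near 0 in 129 and 129CAS MN only. For Fbn1, a difference in how these libraries were counted therefore cannot be told apart from one of genotype. Neither 129 MN library overlapped the BL6 MN range for Thy1, Pdgfrb and Fbn1. How many of all genes tested were without overlap in this comparison was not computed.

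Tagln was lower in 129 MN by a log2 fold change of -1.13 ± 0.36 (edgeR adjusted p = 0.0277), with overlapping ranges. It missed the threshold without 129 MN library 1 (-1.46, edgeR adjusted p = 0.059) or 2 (-0.84, edgeR adjusted p = 0.26). The other contractile genes had -0.68 ± 0.41 (Acta2), -0.73 ± 0.29 (Myl9) and -1.03 ± 0.39 (Cnn1), with edgeR adjusted p = 0.214, 0.0695 and 0.0563. Without BL6 MN library 2, Myl9 (-0.86) and Cnn1 (-1.15) passed as well (edgeR adjusted p = 0.0091 and 0.020).

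The single 129CAS MN library also had 0 of the 10 genes higher than BL6 MN and 5 lower, beside 16.4% and 24.8% of all genes tested. Pdgfrb had a log2 fold change of -2.61 ± 0.42, Fbn1 of -2.36 ± 0.41 and Thy1 of -1.42 ± 0.33 (edgeR adjusted p = 0.000276, 0.000509 and 0.00374). Tagln (-1.49 ± 0.51) and Postn (-1.83 ± 0.69) passed by less (edgeR adjusted p = 0.0321 and 0.0493), and Postn lost its call without BL6 MN library 1, 5 or 6, either 129 MN library or any CAS129 MN library (edgeR adjusted p = 0.054 to 0.067). Acta2 (0.11 ± 0.52), Myl9 (-0.09 ± 0.38), Cnn1 (-0.67) and Fn1 (-1.07) were within the range of the BL6 MN libraries. Pdgfra (0.52) went the other way, at 33.6 CPM in 129CAS MN, above the BL6 MN range of 7.26 to 28.8 CPM, without a call. The limit on counting given for Fbn1 in 129 MN also holds for 129CAS MN, against BL6 MN and against CAS129 MN.

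Between the hybrid labels, 0 of the 10 genes were higher in 129CAS MN than in CAS129 MN and 5 were lower, beside 14.6% and 15.7% of all genes tested. Pdgfrb had 37.6 CPM in 129CAS MN, against 285 ± 11.9 CPM in CAS129 MN (SD, n = 3), a log2 fold change of -3.07 ± 0.45 (edgeR adjusted p = 0.000432). Fbn1 had 221 CPM in 129CAS MN, against 1631 ± 65.9 CPM in CAS129 MN, a log2 fold change of -3.04 ± 0.45 (edgeR adjusted p = 0.000448). Postn (-2.37 ± 0.75), Myl9 (-1.50 ± 0.44) and Cnn1 (-1.73 ± 0.59) were lower too (edgeR adjusted p = 0.0302, 0.0227 and 0.0415). Cnn1 lost its call without BL6 MN library 1 or 7 or any CAS129 MN library, and Postn without CAS129 MN library 1 or 3, each of which left 3 of 10 called. Leaving out BL6 MN library 2, which is in neither of these groups, brought 8 of 10 calls.

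**Figure D4:**
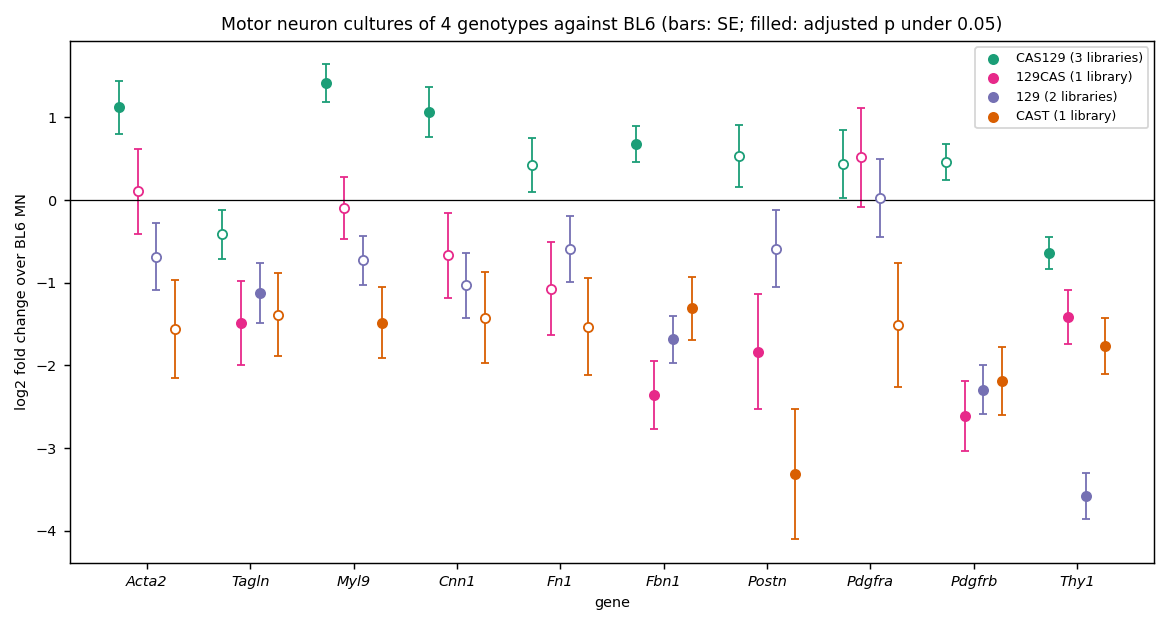
Log2 fold change over BL6 MN (vertical axis) of each of the 10 genes (horizontal axis) in CAS129, 129CAS, 129 and CAST MN; bars are standard errors and filled points passed an edgeR adjusted p of 0.05. Acta2, Myl9, Cnn1 and Fbn1 are filled above 0 in CAS129, and Fbn1, Pdgfrb and Thy1 are filled below 0 in 129CAS, 129 and CAST. Fn1, Postn, Pdgfra and Pdgfrb are open above 0 in CAS129. Tagln, Myl9, Cnn1, Fn1 and Postn are also below 0 in 129CAS, 129 and CAST, but are not filled in all of them.

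Ordered by mean CPM in MN, CAS129 came first for 7 of the 10 genes, BL6 for Tagln and Thy1, and 129CAS for Pdgfra. CAST came last for Acta2, Tagln, Myl9, Cnn1, Fn1, Postn and Pdgfra, 129CAS for Fbn1 and Pdgfrb, and 129 for Thy1. Neighbours in these orders often overlapped. For Pdgfrb the 129CAS, 129 and CAST libraries lay between 28.7 and 57.03 CPM, with both 129 libraries spanning the other two. For Pdgfra the spread within CAS129 MN, 15.0 to 55.6 CPM, covered the means of all genotypes but CAST.

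The 7 BL6 MN libraries varied among themselves. The standard deviation was 40.8% of the mean for Acta2, 41.1% for Cnn1, 33.7% for Tagln and 28.3% for Myl9, and 38.0% for Fn1. Libraries 3 and 4 were the highest and library 2 the lowest for all 4 contractile genes and for Fn1. Acta2 was 3.35-fold higher in library 4, at 7950 CPM, than in library 2, at 2372 CPM. In CAS129 MN the standard deviation was 8.28% of the mean for Acta2, 4.45% for Myl9 and 5.48% for Fn1.

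Postn, Pdgfra and Thy1 followed another order in BL6 MN. Postn was 478 and 390 CPM in libraries 1 and 2 and 95.01 CPM in library 7, a 5.03-fold range. Thy1 was highest in library 2, at 320 CPM, where the contractile genes were lowest, and lowest in library 7, at 156 CPM. Pdgfra was likewise highest in library 2, at 28.8 CPM, and lowest in library 7, at 7.26 CPM. Pdgfrb was lowest in library 2, at 123 CPM, as the contractile genes were. The pan-neuronal list, here with Map2, summed to 5206 CPM in library 2 and to 1534 and 1595 CPM in libraries 3 and 4, and the motor neuron list to 1851, 652 and 683 CPM. The part of neuronal RNA in these differences was not tested.

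**Figure D5:**
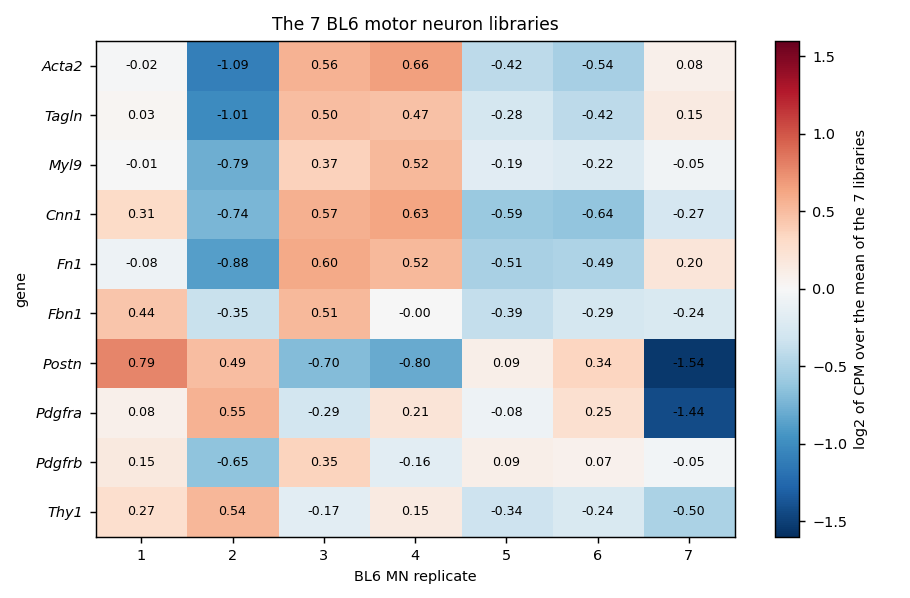
Log2 of the CPM over the mean of the 7 BL6 MN libraries (colour and printed value) for the 10 genes (rows) and the libraries (columns). Libraries 3 and 4 are high and library 2 is low for the contractile genes and Fn1, whereas Postn, Pdgfra and Thy1 are above the mean in library 2.

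Other genes of the same cell types moved with the 10 in MN against PSC. Of the 17 further fibroblast genes tested, 14 rose and 1 fell, with a median log2 fold change of 3.02. The most abundant were Col1a1, a chain of type I collagen (3.14 ± 0.52), Sparc, a matrix glycoprotein (3.02 ± 0.37), and Vim, the intermediate filament of mesenchymal cells (3.11 ± 0.32), with edgeR adjusted p = 3.05e-05, 1.15e-06 and 1.22e-07. S100a4, a further fibroblast marker, was not tested, at a mean of 0.03 CPM or less in every group. Of 14 further smooth muscle genes, 13 rose and 0 fell, with a median of 3.87. Among them were Flna, an actin crosslinker (2.90 ± 0.36), Tpm1, a tropomyosin (3.92 ± 0.31), and Cald1, caldesmon (3.82 ± 0.43), with edgeR adjusted p = 1.31e-06, 6.85e-09 and 3.43e-07.

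Chosen after seeing their values, Myh11, the smooth muscle myosin heavy chain, had a log2 fold change of 8.58 ± 0.80 and Actg2, enteric smooth muscle actin, of 8.54 ± 1.03 (edgeR adjusted p = 3.74e-08 and 8.5e-07). Myh11 averaged 1602 CPM in CAS129 MN and 877 in BL6 MN, against 1.49 in CAS129 PSC and 1.90 in BL6 PSC. The gene of that list without a call was Srf, serum response factor itself, at -0.33 ± 0.24 (edgeR adjusted p = 0.223).

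Of the 6 TGF-beta targets, Ccn2 and Ccn1 were listed at 0 in every hybrid library, and the other 4 all rose, among them Thbs1, thrombospondin 1 (4.66 ± 0.78, edgeR adjusted p = 3.48e-05). Ccn2, connective tissue growth factor, had 3.45 ± 0.76 (edgeR adjusted p = 0.000973) in a fit that includes those libraries. Of the PDGF ligands, 3 of 4 rose, with Pdgfc at 2.91 ± 0.23, Pdgfd at 3.18 ± 0.76 and Pdgfa at 0.54 ± 0.19 (edgeR adjusted p = 6.01e-09, 0.00106 and 0.0163). Of 6 pericyte genes, 4 rose and 1 fell (Anpep, listed at 0 in every hybrid library, was left out). Rgs5, a pericyte regulator of G-protein signalling, had 7.37 ± 0.61, Mcam 1.67 ± 0.26 and Notch3, the Notch receptor of mural cells, -0.68 ± 0.22 (edgeR adjusted p = 1.09e-08, 1.31e-05 and 0.00953).

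Markers of other cell types were read in the same fit, in which 36.1% of all genes tested were called higher and 38.5% lower. Of 10 motor neuron genes 9 rose and 0 fell in MN against PSC, and of 9 pan-neuronal genes 9 rose, as Prph (5.38 ± 0.54) and Tubb3 (3.36 ± 0.27) did (edgeR adjusted p = 8.9e-08 and 8.14e-09). Map2 and Olig2, listed at 0 in every hybrid library, were left out of these counts. Of 7 glial and neural crest genes 2 rose and 5 fell, with Snai2 at 3.33 ± 0.35 and Erbb3 at -3.65 ± 0.26 (edgeR adjusted p = 1.89e-07 and 2.23e-09). Of 8 primitive endoderm genes 5 rose and 0 fell, and all 8 pluripotency genes fell, as Pou5f1 did (-8.72 ± 1.04, edgeR adjusted p = 7.69e-07). Of 7 striated muscle genes 3 rose and 1 fell. The fall of the pluripotency list was smaller within CAS129, with a median log2 fold change of -2.28, against -8.43 in BL6 and -9.35 in CAST. In CAS129 7 of its genes fell and 1 rose, beside 23.9% of all genes tested called lower and 30.4% higher. Pou5f1 averaged 878 CPM in CAS129 PSC and 140 CPM in CAS129 MN.

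Across MN genotypes the neuronal lists were ordered differently from the 10 genes. Without Map2, the pan-neuronal list summed to 717 to 940 CPM in CAS129 MN, 2985 in 129CAS MN, 1872 and 2835 in 129 MN, 4365 in CAST MN and 1331 to 4457 in BL6 MN. The motor neuron list summed to 334 to 426 CPM in CAS129 MN, 1496 in 129CAS MN, 520 and 736 in 129 MN, 2052 in CAST MN and 570 to 1851 in BL6 MN. CAS129 MN thus had the highest summed CPM of the 10 genes and the lowest of both neuronal lists. CAST MN had the lowest sum of the 10 genes and the highest of the motor neuron list.

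In CAS129 MN against BL6 MN, 9 of 9 pan-neuronal genes were lower, without Map2, and so were 8 of 10 motor neuron genes, beside 32.5% of all genes tested. Since CPM are shares of 1 total, more of one kind of RNA lowers the others, and the part of this in each value was not tested. Over all genes tested, 27.0% were called higher and 32.5% lower in CAS129 MN, 5.76% and 6.58% in CAST MN, 16.4% and 24.8% in 129CAS MN, and 18.3% and 18.1% in 129 MN. Beside these shares, the smooth muscle list had 6 of 14 genes higher and 0 lower in CAS129 MN, and 0 higher and 8 lower in CAST MN. The fibroblast list had 7 of 16 higher and 2 lower in CAS129 MN, 0 of 16 higher and 3 lower in CAST MN, 0 higher and 12 lower in 129CAS MN, and 1 higher and 9 lower in 129 MN.

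The striated muscle list was highest in 129 MN, where it summed to 360 and 375 CPM, against 13.01 to 71.7 CPM in BL6 MN. The single 129CAS MN library, at 108 CPM, was also above the BL6 MN range, with a median log2 fold change of 2.31. In 129 MN, 8 of 8 genes were higher than in BL6 MN, beside 18.3% of all genes tested. Acta1, skeletal actin, had a log2 fold change of 2.48 ± 0.46 there (edgeR adjusted p = 0.001) and averaged 175 CPM, compared with 28.5 in BL6 MN. Chosen after seeing its values, Myog, the myogenic regulator, averaged 8.73 CPM in 129 MN and 0.31 CPM in BL6 MN, a log2 fold change of 4.61 ± 0.80 (edgeR adjusted p = 0.000648). The part of skeletal muscle RNA, or of the greater depth, in the 129 MN values of the 10 genes was not tested.

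The genes whose log2(CPM + 1) most resembled the mean of each role over the 14 MN libraries were found among 10051 genes with a mean of at least 10 CPM in MN. For the contractile genes these were Bag2 (Pearson r = 0.98), Mdfic (0.98), Parva (0.97) and Nxn (0.97), and for the matrix genes Mylk (0.98), Fbln5 (0.96), Ror2 (0.96) and Mrvi1 (0.96). Mylk is myosin light chain kinase, Fbln5 an elastic fibre protein and Parva an integrin-linked actin-binding protein. For the surface proteins they were Irak4 (0.95), Gpx7 (0.93), C1qtnf6 (0.92) and Emilin1 (0.92). Bag2 averaged 205 CPM in CAS129 MN, 99.3 in 129CAS MN, 51.8 in 129 MN, 39.4 in CAST MN and 93.3 in BL6 MN. The libraries share genotype and depth, so these values describe likeness and carry no p.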

How the data were processed

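The authors deposited 1 table of raw read counts per gene, in which 20 of 28 columns matched a labelled library (8 columns were not used, and 7 labelled samples without a matching column were not analysed here). Reads were aligned with STAR to GRCm38 (mm10), per the submitters' processing notes. The part of this reference in differences between genotypes was not tested. The counting program, annotation and strand setting were not given in the sources used here. Of 27071 Ensembl IDs, 27031 matched GENCODE M21, which gave symbols, positions and exon lengths. Genes overlapping a member in the table were Pcsk7, Gm9913 and Mir7025.

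The deposited counts were tested with edgeR 4.0.16 (R 4.3.3): TMM scaling, genes reaching 1 CPM in 2 or more of the fitted libraries, 2-sided quasi-likelihood tests, Benjamini-Hochberg adjustment over all genes tested and a threshold of 0.05. MN against PSC over genotypes used 17 libraries, the within-genotype tests all 20, MN genotypes 14 and PSC genotypes 6. Standard errors were log2 fold change over the square root of F. CPM used TMM library sizes over the 20 libraries. No 2 libraries of a group agreed within sampling noise (chi-square per degree of freedom of 2.96 to 121 over 28 pairs). Closeness was uneven, at 2.96 for BL6 MN libraries 5 and 6, 9.00 for 3 and 4 and 121 for 2 and 3. The CAS129 MN pairs were at 3.38 to 7.66. Whether the closer libraries are separate cultures is not known, so they may not be independent units. Alternatives were RLE and upper-quartile scaling, other filters, DESeq2 1.42.0, a replicate block, fits of only the groups compared and leaving out each library. The scripts were tested on simulated data. Named non-members were up to 3 called genes per list, by highest mean CPM, unless said otherwise; 1 such gene is not reported here. The members and lists were chosen with earlier results of these data known. With each group at 1 to 7 libraries, no interval covers more than the spread among libraries and counting error.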

Additional observations from a re-analysis of the deposited data

Results flagged for a closer look

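The test of a difference between genotypes in the change from PSC to MN picked out 3 of the 10 genes. Cnn1 (log2 difference of 2.45) and Pdgfra (3.16) changed more in CAS129 than in BL6, where 13.7% of all genes tested were called larger and 4.53% smaller. Pdgfrb (-2.20) changed less in CAST than in BL6, where 4.55% were called larger and 2.73% smaller. Each lost its call when 1 PSC library was left out. In each of 10 tests over the 7 BL6 MN libraries, 1 per gene, no library lay beyond Dixon's critical value, where chance alone would mark about 1 in 20.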

How the results depend on the processing

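Of 2960 recomputed log2 values of single genes, 2834 stayed on their side of the threshold, 66 of them with a changed sign and called under neither setting. Another 73 kept the direction but no longer passed, 53 passed newly and 0 changed sign after being called. All 10 genes were called higher in MN over genotypes under every setting except the baseline of PSC libraries numbered 1 alone, which gave 9. The second CAS129 PSC library held 4 counts of Myl9, 7 of Acta2, 7 of Cnn1 and 11 of Pdgfra. The cause of the moves below was not tested.

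The number of the 10 genes whose change differed between CAS129 and BL6 was 2, but 1 with RLE scaling and 1 in a fit of only the groups compared. Without the PSC libraries numbered 1 it was 4 and without those numbered 2 it was 0 (both chosen after seeing the data); the second set gave 1601 genes in all in place of 2884. For CAST minus BL6 it was 1, but 2 without a filter, 2 in DESeq2, 3 without the PSC libraries numbered 1 and 0 without those numbered 2. Genes called in all there were 1153, but 2017 in DESeq2, 2359 and 580 without the PSC libraries numbered 1 and 2, and 577 with only the groups compared. For CAST MN against BL6 MN, the 5 members called became 9 in DESeq2 and 2 with only the groups compared, where genes called fell to 895, against 1831. With only the groups compared, 129CAS MN had 3 in place of 5 against BL6 MN and 9 in place of 5 against CAS129 MN. CAST PSC against BL6 PSC had 0 members called, but 1 without a filter and 1 in DESeq2, with 2682 and 2222 genes in place of 1455. CAS129 PSC against BL6 PSC had 1, but 2 without a filter.

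Same-numbered libraries of different groups correlated at -0.12 to 0.43 over 31 pairs. Between groups of 2 libraries, the numbers 1 and 2 give the same value by construction, so these pairs are not all separate. The 6 PSC pairs thus held only 0.03, 0.31 and 0.36, each for both numbers. Not every pair was over 0.1, so the numbers were not taken as pairing. With the replicate number as a block, the genes whose change differed were 1887 for CAS129 minus BL6 and 500 for CAST minus BL6, with 2 of the 10 genes in CAST. The block gave 3 members and 766 genes for CAST MN against BL6 MN, 1 member for CAST PSC and 2 for CAS129 PSC against BL6 PSC. The block added the calls of Pdgfra in CAST PSC (-1.79, edgeR adjusted p = 0.044) and of Tagln in CAS129 PSC (-2.59, edgeR adjusted p = 0.00061).

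Leaving out 1 library at a time gave 10 to 10 members called over genotypes, 8 to 9 in BL6, 9 to 10 in CAS129 and 4 to 7 in CAST. The change differed for 0 to 5 members and 1409 to 3664 genes for CAS129 minus BL6, and for 0 to 3 members and 570 to 2567 genes for CAST minus BL6. Against BL6 MN, members called were 3 to 6 in 129 (2800 to 6324 genes), 4 to 6 in CAS129, 3 to 9 in CAST (1550 to 3805 genes) and 4 to 6 in 129CAS. They were 3 to 8 for 129CAS MN against CAS129 MN. For PSC against BL6 PSC they were 0 to 1 in CAST (226 to 2105 genes) and 0 to 1 in CAS129 (2132 to 3657 genes). An arm of 1 library is assumed to vary like the other groups.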
